A study of Mus musculus with 2 samples.

Results

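Members of the Wnt signalling system, 10 genes, were followed in mouse eye organoids, namely the Wnt ligands Wnt1, Wnt7b and Wnt8b, the R-spondins Rspo2 and Rspo3, the receptor Fzd5, the antagonists Shisa2, Sfrp1 and Sfrp2, and the feedback target Axin2. They were taken by gene symbol, and each of these 10 symbols stood on 1 line of the 27998 genes in both count matrices. The organoids were grown from a single mouse embryonic stem cell line, heterozygous for a GFP knock-in at Rax, a transcription factor of the field of cells that forms the eye. Both groups share this genotype. Single cells were sequenced by a 3′ end protocol on day 6 of culture, around the time when optic vesicles bulge outward, and on day 4, before they do. Each day was 1 library into which 3 experiments had been pooled, with no map from cells to experiments, so no test between days or between groups of cells was possible and no p-value is given.

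Wnt ligands are secreted proteins that bind Frizzled receptors and LRP co-receptors and keep β-catenin from being degraded. R-spondins are secreted too, and they strengthen the signal by removing enzymes that clear Frizzled receptors from the cell surface. Secreted Frizzled-related proteins such as Sfrp1 and Sfrp2 bind Wnts outside the cell, whereas Shisa2 belongs to a family that holds Frizzled receptors inside the endoplasmic reticulum. Axin2 is switched on by β-catenin signalling in many tissues and feeds back to limit it. In the vertebrate head, Wnt ligands come from the dorsal midline and from the midbrain and its border with the hindbrain, and the forming eye lies where canonical Wnt signalling is kept low. Fzd5 is expressed in the early eye field of several vertebrates.

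The promoters of Wnt8b and Shisa2 are shown because these were the ligand and the antagonist with the largest number of cells behind a shortfall of shared cells on day 6, described further on. Both are RefSeq windows on build GRCm38.p6, running from 250 bases before to 50 bases after the transcription start site. Wnt8b lies at chr19:44493222-44493521 and Shisa2 at chr14:59625031-59625330, both on the plus strand. The Wnt8b gene (ENSMUSG00000036961) spans chr19:44493472-44514273 and the Shisa2 gene (ENSMUSG00000044461) chr14:59625308-59631660 in GENCODE M21. Capitals mark the letters TAATTA, a core that many homeodomain proteins recognise, searched on both strands after the levels of the genes had been seen.
Wnt8b: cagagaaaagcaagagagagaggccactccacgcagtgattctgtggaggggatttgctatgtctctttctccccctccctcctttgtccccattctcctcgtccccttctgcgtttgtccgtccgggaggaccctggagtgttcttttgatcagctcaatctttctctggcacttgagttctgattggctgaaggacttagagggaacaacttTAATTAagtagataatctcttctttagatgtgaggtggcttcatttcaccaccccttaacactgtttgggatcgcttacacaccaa
Shisa2: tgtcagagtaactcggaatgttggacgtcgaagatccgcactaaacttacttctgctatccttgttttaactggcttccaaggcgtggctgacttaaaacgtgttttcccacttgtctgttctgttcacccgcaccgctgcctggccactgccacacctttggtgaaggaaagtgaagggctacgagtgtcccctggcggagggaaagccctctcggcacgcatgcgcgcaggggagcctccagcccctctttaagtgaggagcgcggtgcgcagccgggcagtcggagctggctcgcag
TAATTA started 36 bases before the start site of Wnt8b and was in none of the windows of Wnt1, Fzd5, Shisa2, Sfrp2 and Axin2, while 5.29% of 32851 promoter windows of that length held it. TCAAAG, the core of the site bound by the TCF and LEF factors that act with β-catenin, was in none of the 6 windows on either strand, against 16.0% of all windows. Windows of 6 of the 10 genes were matched. These matches are descriptions of the letters only.

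After filtering, the day 6 library held 6641 cells with a median of 12514 UMIs (unique molecular identifiers, 1 per captured RNA molecule), and the day 4 library held 8147 cells with a median of 11216. Levels are given as CPM, the usual scale of UMIs over the total of the summed cells. Brackets hold 95% intervals, exact Poisson ones for levels, exact conditional binomial ones for ratios and exact Clopper-Pearson ones for shares of cells, none of which holds more than the error of counting. A rule of size replaced a test: higher or lower was said of a gene whose ratio was 1.5-fold or beyond and whose interval excluded 1, and the rule took in genes whose 2 groups averaged 10 CPM or more. Shares of cells were computed after each cell had been thinned to 5000 UMIs. Deposited barcodes shared by both libraries numbered 91, of which 78 passed the filter in both. In summed cells, fewer expressing cells and less RNA per cell cannot be told apart, so the shares of cells are given beside the levels.

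All 5 ligand and R-spondin genes stood higher in the day 6 library than in the day 4 library, from low day 4 levels of 0.02 to 0.95 CPM. Wnt8b, a ligand of the dorsal forebrain in mouse embryos, was at 17.5 CPM on day 6 (16.6 to 18.4) and at 0.27 CPM on day 4 (0.18 to 0.40), a ratio of 63.8 (43.7 to 97.2). Wnt8b UMIs numbered 1534 on day 6, against 27 on day 4. Wnt7b, a ligand of the forebrain and of blood vessel formation in the brain, had 11.2 CPM on day 6 against 0.88 CPM on day 4, with a ratio of 12.7 (10.2 to 16.0). Wnt1, a ligand of the midbrain and its border with the hindbrain, had 5.40 CPM on day 6 against 0.56 CPM on day 4, with a ratio of 9.68 (7.31 to 13.0). Each of these 3 ligands was rare on both days, found in 6.52%, 4.94% and 1.61% of thinned day 6 cells in the order just given. Rspo3 had 10.2 CPM on day 6 against 0.95 CPM on day 4, with a ratio of 10.7 (8.68 to 13.4). Rspo2 was at 3.03 CPM on day 6, with 266 UMIs, and at 0.02 CPM on day 4, with 2 UMIs, and its ratio of 149 (41.0 to 1240) rests on those 2 molecules. None of these 5 genes, nor Axin2, averaged 10 CPM over the days, so the size rule was not applied to them. The share of genes at such low levels that stood higher on day 6 is not given, so the 5 describe the members only.

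Among the 4 genes that entered the rule, the 3 antagonists were higher on day 6 and the receptor was lower. Of all 6699 genes that entered, 13.3% were higher and 6.28% lower, and their median log2 ratio was 0.14, so a level set against the bulk of the genes lies slightly under its ratio. Shisa2 was at 127 CPM on day 6 (125 to 130) and at 37.3 CPM on day 4 (36.1 to 38.5), a ratio of 3.42 (3.29 to 3.55), and 39.6% of thinned cells held it on day 6, against 14.8% on day 4. Sfrp1 reached 173 CPM on day 6 against 70.6 CPM on day 4, with a ratio of 2.44 (2.38 to 2.52). Sfrp2 reached 117 CPM on day 6 against 51.5 CPM on day 4, with a ratio of 2.27 (2.19 to 2.35). Fzd5 fell instead, to 12.4 CPM on day 6 (11.7 to 13.2), against 20.4 CPM on day 4 (19.5 to 21.3), a ratio of 0.612 (0.568 to 0.659), and 5.90% of thinned cells held it on day 6, against 8.88% on day 4. At a limit of 2-fold it was no longer called. The feedback target Axin2 had 10.1 CPM on day 6 against 3.41 CPM on day 4, with a ratio of 2.96 (2.61 to 3.37).

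**Figure D1:**
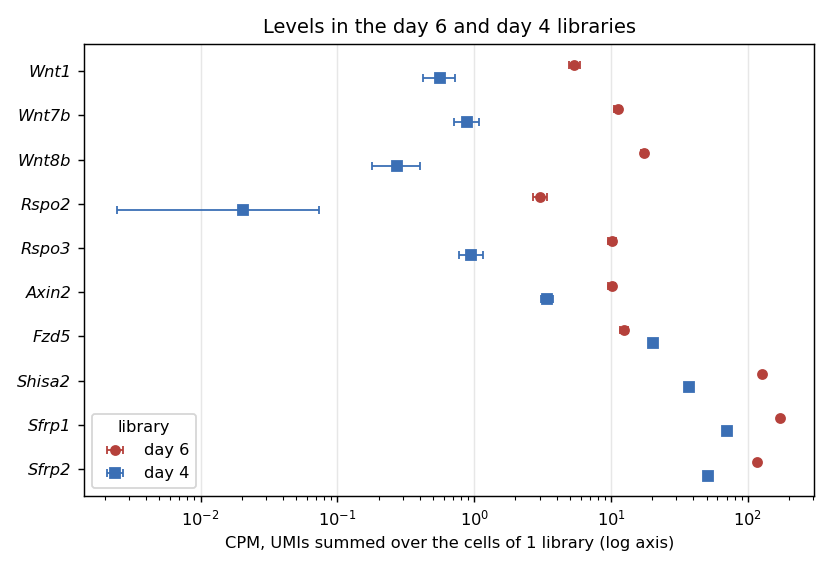
Levels of the 10 genes in the day 6 library (circles) and the day 4 library (squares), as CPM of the summed cells on a log axis, with exact Poisson 95% intervals that cover counting error only. Fzd5 is the 1 gene whose day 6 level, 12.4 CPM, lies under its day 4 level, 20.4 CPM.

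Day 6 cells were then grouped by raw UMIs of 4 transcription factors with different places in the embryonic brain: Six6 in the optic vesicle, Fezf2 in the forebrain, Emx2 in the dorsal forebrain, and En1 in the midbrain and anterior hindbrain. A cell with at least 1 UMI of 1 factor and none of the other 3 was assigned to that factor. This gave 2142 cells with Six6 alone, 742 with Fezf2 alone, 371 with Emx2 alone and 61 with En1 alone, with 1194 cells holding 2 or more of the 4 and 2131 holding none. Median depth ran between 11567 UMIs in cells with none and 14187.5 in cells with 2 or more, so more deeply read cells were more often assigned to several factors. Of the other optic vesicle genes, cells with Six6 alone held Pax6 at 374 CPM, Lhx2 at 174 CPM, Rax at 168 CPM and Six3 at 142 CPM. Vax2 was at 6.85 CPM and Vax1 at 0.07 CPM. Several were also present elsewhere, with Rax at 70.3 CPM and Pax6 at 217 CPM in Fezf2-alone cells. In Emx2-alone cells Rax was at 46.2 CPM and Pax6 at 208 CPM. Cells with En1 alone were mixed by their markers. Of the midbrain and hindbrain genes, Fgf8 and Pax5 were present at 37.4 and 15.7 CPM. Pax8 and En2 had 3 and 2 UMIs, and Pax2, at 6.03 CPM, was under its 14.7 CPM in Six6-alone cells. The 7 endoderm markers summed to 162 CPM (13.1 CPM in Six6-alone cells), 6 neural crest markers to 85.6 CPM (5.75 CPM in Six6-alone cells) and 4 neuron markers to 283 CPM (45.3 CPM in Six6-alone cells). In Emx2-alone cells the endoderm markers summed to 77.5 CPM. Of the other dorsal forebrain genes, Dmrta2 and Barhl2 were at 23.6 and 8.65 CPM there, but Emx1 and Lhx9 at 0.39 and 0.59 CPM. Without the cells that carried endoderm, neural crest or pluripotency markers, all 10 members kept their direction in Six6-alone against En1-alone and Emx2-alone cells, with a Wnt1 ratio of 0.0040 and a Shisa2 ratio of 12.8 over En1-alone cells and a Wnt8b ratio of 0.0282 and an Fzd5 ratio of 6.24 over Emx2-alone cells. The part of the neuron markers was not tested.

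Among the 6 groups, the 5 ligand and R-spondin genes were lowest in Six6-alone cells, each with an interval that did not reach that of the next group up. The share of all genes with such an order was not computed, so the count is a description of the members only. Pluripotency-marked cells, a part of those with none of the 4 factors, had values as low, with Wnt7b at 3.58 CPM (2.24 to 5.42) and Wnt8b at 1.30 CPM (0.56 to 2.57), whose intervals overlap those of Six6-alone cells. Wnt1 was at 0.50 CPM in Six6-alone cells (0.27 to 0.83), 4.10 CPM in Fezf2-alone cells, 6.69 CPM in Emx2-alone cells and 113 CPM in En1-alone cells (91.6 to 139). It was found in 34.4% of the 61 En1-alone cells (22.7 to 47.7) and in 0.14% of Six6-alone cells (0.03 to 0.41). Wnt8b was at 1.60 CPM in Six6-alone cells (1.17 to 2.14), 25.5 CPM in Fezf2-alone cells (22.4 to 28.9), 54.3 CPM in Emx2-alone cells (48.1 to 61.1) and 18.1 CPM in En1-alone cells (10.1 to 29.8). Its highest level was thus in Emx2-alone cells, 20.2% of which held it (16.2 to 24.7), against 0.89% of Six6-alone cells (0.53 to 1.38). Rspo3 had the same order at its top, with 0.71 CPM in Six6-alone cells (0.43 to 1.10), 13.3 CPM in Fezf2-alone cells, 38.7 CPM in Emx2-alone cells (33.5 to 44.5) and 15.7 CPM in En1-alone cells (8.34 to 26.8).

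Wnt7b and Rspo2 did not separate the dorsal forebrain from the midbrain factor. Wnt7b was at 4.08 CPM in Six6-alone cells, 17.3 CPM in Fezf2-alone cells, 25.0 CPM in Emx2-alone cells (20.8 to 29.7) and 28.9 CPM in En1-alone cells (18.5 to 43.0), and the last 2 intervals overlap. Rspo2 was at 0.53 CPM in Six6-alone cells, 2.56 CPM in Fezf2-alone cells, 10.6 CPM in Emx2-alone cells (7.98 to 13.9) and 15.7 CPM in En1-alone cells (8.34 to 26.8), again with overlap at the top. Pluripotency-marked cells without any of the 4 factors were used as a reference for low detection, which free RNA or expression may give. There Wnt8b was found in 0.24% of 423 cells (0.01 to 1.31) and Rspo3 in 0.24%, with a median of 14241 UMIs, against 12323 in Six6-alone cells. Wnt7b was found in 1.63% of Six6-alone cells (1.14 to 2.27) and 0.95% of pluripotency-marked cells (0.26 to 2.40), and Axin2 in 1.87% of Six6-alone cells (1.34 to 2.53) and 2.36% of pluripotency-marked cells (1.14 to 4.30). The Six6-alone intervals of all 4 of these genes overlap those of the pluripotency-marked cells. Their detection in Six6-alone cells is not read as expression, and whether it is expression or free RNA was not tested. In day 4 cells with pluripotency markers Axin2 was at 2.83 CPM and Fzd5 at 13.9 CPM, so such cells may express members. A ratio of Six6-alone cells to another group rests on a low level for these 4 genes. Wnt1 and Rspo2 were lower still in Six6-alone cells, with 14 UMIs in 8 cells and 15 UMIs in 9 cells, so their ratios rest on few molecules.

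The ligands were concentrated in few cells. The 66 day 6 cells richest in Wnt1 held 66.2% of its 474 UMIs, and the richest 66 cells for Rspo2 and Rspo3 held 59.0% and 44.7% of their UMIs. For Wnt8b and Wnt7b this share was 22.2% and 21.6%. Axin2 and Fzd5, at similar levels, had 17.4% and 15.6%. The antagonists, which are more abundant, had 4.82% for Sfrp1, 5.95% for Shisa2 and 6.91% for Sfrp2, and this share also depends on the level of the gene. A single cell held up to 17 UMIs of Rspo3 and 16 of Wnt1, so the Poisson intervals of these genes, which treat UMIs as independent, are narrower than the spread between cells.

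The receptor and the 3 antagonists had their highest level among the 6 groups in Six6-alone cells, for Sfrp1 with an interval that overlaps the next. For this order too, the share of all genes was not computed. Fzd5 was at 22.5 CPM in Six6-alone cells (20.8 to 24.3), 7.78 CPM in Fezf2-alone cells (6.13 to 9.74), 4.13 CPM in Emx2-alone cells (2.56 to 6.31) and 7.23 CPM in En1-alone cells (2.65 to 15.7). The intervals of the last 3 groups overlap. Fzd5 was found in 10.4% of Six6-alone cells (9.10 to 11.7), 2.16% of Emx2-alone cells (0.94 to 4.20) and 3.07% of pluripotency-marked cells. The Emx2-alone share is thus not above that of pluripotency-marked cells. Shisa2 was at 223 CPM in Six6-alone cells (218 to 229), 89.9 CPM in Fezf2-alone cells (84.0 to 96.0), 71.6 CPM in Emx2-alone cells (64.4 to 79.3) and 19.3 CPM in En1-alone cells (11.0 to 31.3), and each step down exceeds the counting intervals. It was found in 64.7% of Six6-alone cells (62.6 to 66.7) and in 4.02% of pluripotency-marked cells. Sfrp2 was at 179 CPM in Six6-alone cells, 82.1 CPM in Fezf2-alone cells, 114 CPM in Emx2-alone cells and 56.6 CPM in En1-alone cells. Sfrp1 was nearly level across the forebrain factors, at 212 CPM in Six6-alone cells, 177 CPM in Fezf2-alone cells and 193 CPM in Emx2-alone cells, and low in En1-alone cells at 47.0 CPM (33.4 to 64.3).

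Axin2, the feedback target, was lowest in Six6-alone cells among the 6 groups. It was at 4.86 CPM in Six6-alone cells (4.08 to 5.75), 9.32 CPM in Fezf2-alone cells (7.50 to 11.4), 17.5 CPM in Emx2-alone cells (14.1 to 21.5) and 30.1 CPM in En1-alone cells (19.5 to 44.5). Its order over these 4 groups was therefore the order of Wnt1, Wnt7b and Rspo2, though the intervals of the En1-alone and Emx2-alone cells overlap. In cells with none of the 4 factors it was at 12.5 CPM, and among these it was highest in the 86 cells with neural crest markers, at 25.6 CPM (17.7 to 35.7), and lowest in the 423 with pluripotency markers, at 4.23 CPM (2.76 to 6.20), an interval that overlaps that of Six6-alone cells.

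**Figure D2:**
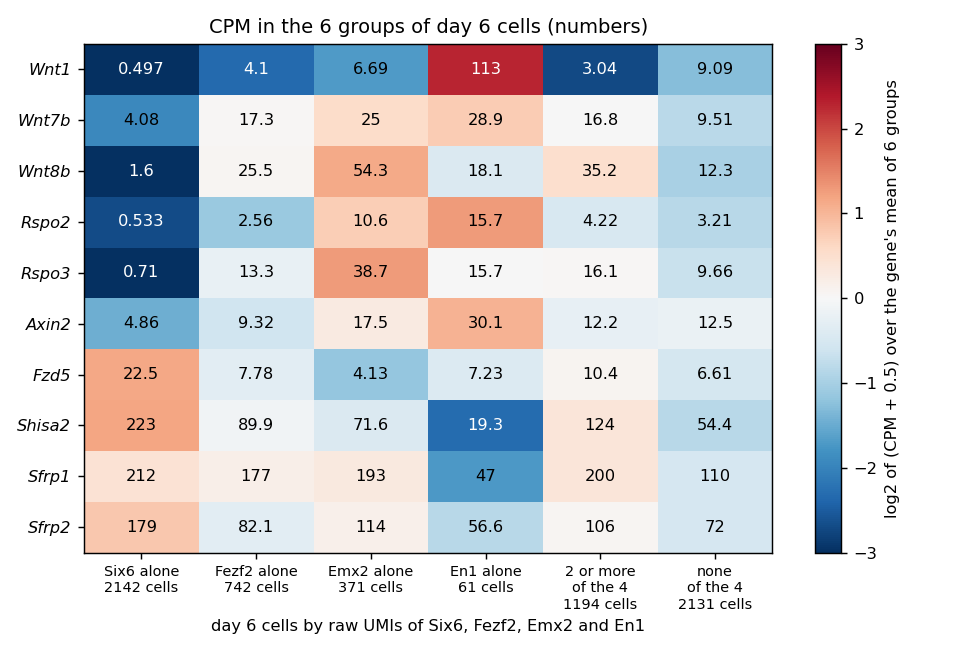
CPM of the 10 genes (numbers) in 6 groups of day 6 cells, coloured by the log2 ratio of each value plus 0.5 CPM to the gene's mean over the groups. The ligands, the R-spondins and Axin2 are blue in Six6-alone cells, where Fzd5, Shisa2, Sfrp1 and Sfrp2 are red, and Wnt1 reaches 113 CPM in En1-alone cells.

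Ratios of Six6-alone cells to each other group put sizes on these differences. The 4 comparisons share the Six6-alone cells. They also share a filter through which a rare ligand enters only where the second group holds it, so the counts describe the members and are no support for a direction. Against En1-alone cells, 7 of the 10 genes entered the rule, 4 being higher and 3 lower, while 4.49% of 6907 genes overall were higher and 7.38% lower. Shisa2 was 11.6-fold higher in Six6-alone cells (7.12 to 20.2), Sfrp1 4.51-fold (3.29 to 6.35), Sfrp2 3.16-fold (2.38 to 4.31) and Fzd5 3.11-fold (1.42 to 8.50). The lower genes were Wnt1 with a ratio of 0.0044 (0.0023 to 0.0077), Wnt7b with 0.141 (0.090 to 0.229) and Axin2 with 0.161 (0.105 to 0.258). With cells grouped by each factor whatever the other 3 showed, the Wnt1 ratio was 0.0131 and the Shisa2 ratio 6.66.

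Against Emx2-alone cells, 8 genes entered, with 3 higher, 4 lower and 1 within the limits, while 1.37% of all 6796 genes were higher and 2.6% lower. Fzd5 was 5.44-fold higher in Six6-alone cells (3.53 to 8.85), Shisa2 3.12-fold (2.80 to 3.47) and Sfrp2 1.57-fold (1.44 to 1.72), the last just inside the limit. Sfrp1, at 1.10-fold (1.02 to 1.17), was within it. The lower genes were Rspo3 with a ratio of 0.0183 (0.0110 to 0.0291), Wnt8b with 0.0294 (0.0210 to 0.0405), Wnt7b with 0.163 (0.126 to 0.212) and Axin2 with 0.278 (0.211 to 0.367). Where at least 2 UMIs of a factor were required, the ratio of Fzd5 was 10.9 and that of Shisa2 5.95, and with overlapping groups the ratio of Rspo3 was 0.0606 and that of Wnt8b 0.0616.

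Against Fezf2-alone cells, 6 genes entered, with 3 higher, 2 lower and 1 within, while 1.66% of 6729 genes were higher and 2.13% lower. Fzd5 was 2.89-fold higher in Six6-alone cells (2.27 to 3.71), Shisa2 2.48-fold (2.31 to 2.67) and Sfrp2 2.18-fold (2.03 to 2.35). Sfrp1, at 1.19-fold (1.13 to 1.26), was within the limits. Wnt8b was lower with a ratio of 0.0627 (0.0446 to 0.0864) and Wnt7b with 0.236 (0.185 to 0.301). Wnt1, outside the rule, had a ratio of 0.121 here, which was 0.612 with overlapping groups. Against cells with none of the 4 factors, 4 genes entered and all were higher, while 4.04% of 6828 genes were higher and 6.2% lower: Shisa2 by 4.10-fold (3.87 to 4.34), Fzd5 by 3.40-fold (2.87 to 4.05), Sfrp2 by 2.49-fold (2.36 to 2.63) and Sfrp1 by 1.93-fold (1.84 to 2.02). Without cells that carried neural crest, endoderm or pluripotency markers, Sfrp1 was at 1.40-fold and no longer met the limit.

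**Figure D3:**
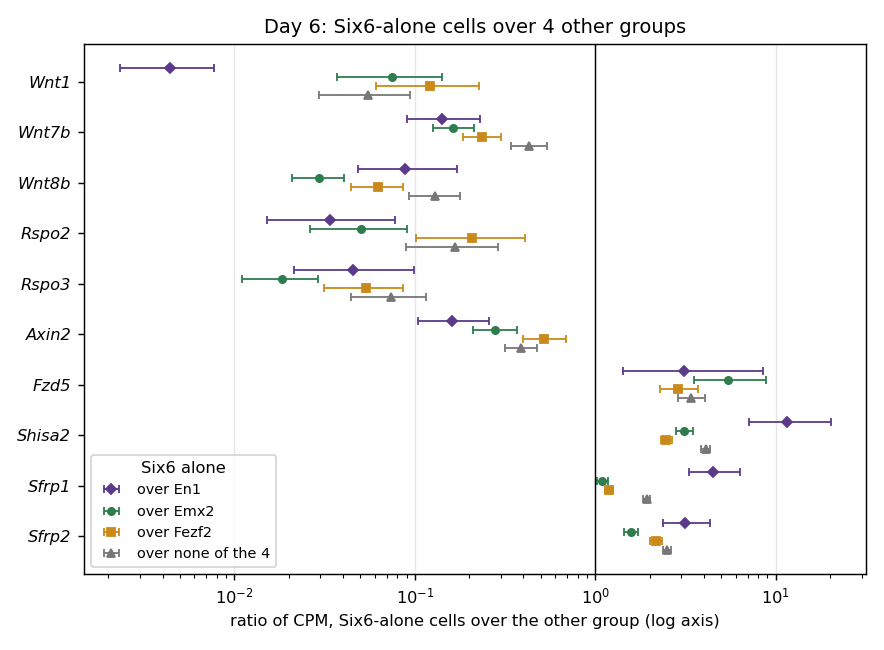
Ratio of CPM in Six6-alone cells over En1-alone, Emx2-alone and Fezf2-alone cells and cells with none of the 4 factors, on a log axis, with exact conditional binomial 95% intervals (counting error only). The 5 ligand and R-spondin genes and Axin2 lie left of 1 in all 4 comparisons and Fzd5, Shisa2 and Sfrp2 lie right of it, while Sfrp1 lies within 1.5-fold of Emx2-alone and Fezf2-alone cells.

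Cells with more than 1 factor did not all lie between these groups. In the 522 cells with Fezf2 and Emx2, Wnt8b reached 68.9 CPM (63.2 to 75.0) and Rspo3 30.0 CPM (26.2 to 34.1), while Shisa2 was at 55.2 CPM (50.1 to 60.6) and Fzd5 at 3.47 CPM (2.29 to 5.05). The Wnt8b level was above, and the Shisa2 level below, those of both Emx2-alone and Fezf2-alone cells, with intervals apart. In the 482 cells with Six6 and Fezf2, Wnt8b was at 4.24 CPM (2.84 to 6.09), Rspo3 at 1.17 CPM (0.50 to 2.30), Shisa2 at 186 CPM (176 to 196) and Fzd5 at 17.1 CPM (14.1 to 20.5). Cells with Six6 and Emx2, 102 in number, were not simply of either kind. They held Shisa2 at 220 CPM (197 to 244), near the Six6-alone level, and Rspo3 at 13.4 CPM (8.29 to 20.5) and Wnt8b at 12.1 CPM (7.29 to 18.9), above the Six6-alone levels. Doublets of both kinds of cell are in these groups to an unknown extent, and their part was not tested.

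Within Six6-alone cells, the summed levels of Sfrp2, Shisa2 and Fzd5 were in the order of the UMIs of Six6, and that of Sfrp1 was not. Over cells with 1 UMI of Six6 (533 cells), 2 to 3 (742), 4 to 7 (637) and 8 or more (230), Sfrp2 was at 125, 166, 203 and 245 CPM. Shisa2 was at 186, 217, 239 and 262 CPM over the same bins, and Fzd5 at 19.9, 20.6, 23.3 and 29.4 CPM. The first and last intervals do not overlap for any of the 3, being 116 to 134 and 230 to 261 CPM for Sfrp2, 175 to 197 and 246 to 279 CPM for Shisa2, and 16.6 to 23.7 and 24.2 to 35.4 CPM for Fzd5. No share of all genes with such an order over the bins was computed, so this describes the members only. Six3, which is not a member, had the same order, at 107, 132, 154 and 196 CPM. Sfrp1 had 225, 213, 214 and 182 CPM. Wnt8b was at 2.23, 1.73, 1.36 and 0.79 CPM, with intervals that overlap throughout. Median depth increased over these bins, with 10946, 11767.5, 12971 and 15746 UMIs per cell. After each cell had been thinned to 5000 UMIs, Sfrp2 was found in 44.7% of cells in the first bin (40.4 to 49.0) and 62.2% in the last (55.6 to 68.5), still apart. Shisa2 was found in 60.0% (55.7 to 64.2) and 69.6% (63.2 to 75.4) of the same bins, and Fzd5 in 11.3%, 8.36%, 10.7% and 13.9% over the 4 bins. At this equal depth the Fzd5 shares were not in order, and the first and last intervals overlapped for Fzd5 (8.70 to 14.3 and 9.72 to 19.1) and Shisa2.

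**Figure D4:**
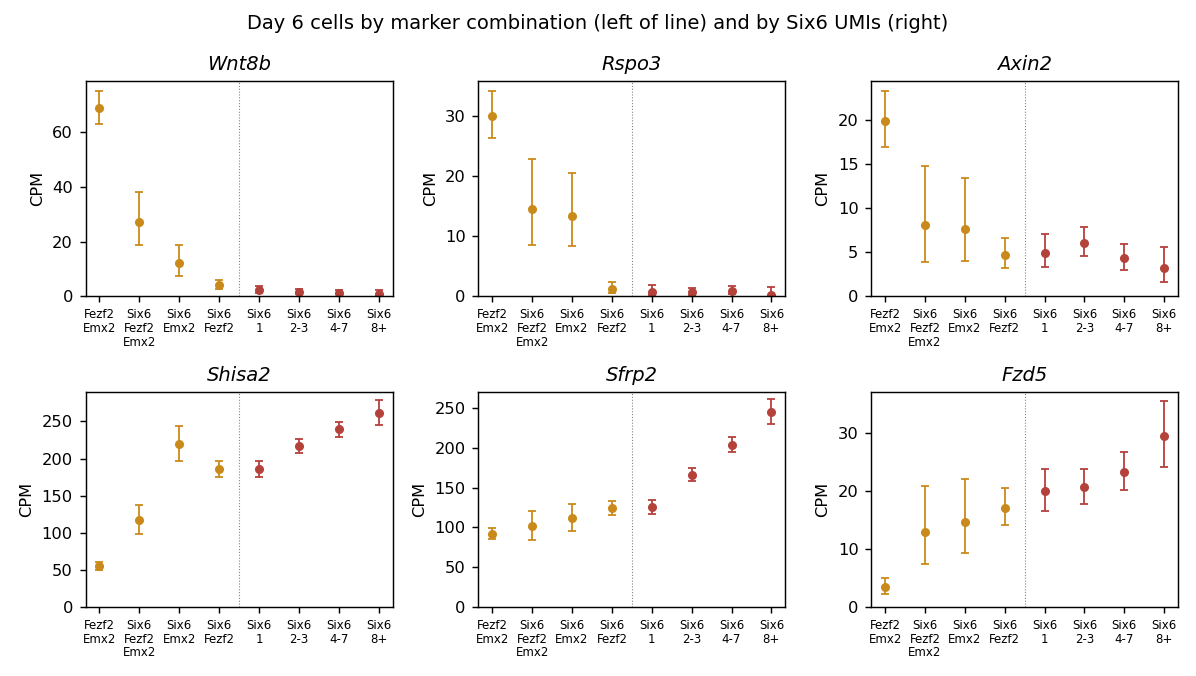
CPM of 6 genes in day 6 cells with several factors (left of the dotted line) and in Six6-alone cells by raw UMIs of Six6 (right), with exact Poisson 95% intervals. Wnt8b and Rspo3 are highest in cells with Fezf2 and Emx2, at 68.9 and 30.0 CPM, and Sfrp2 reaches 245 CPM in cells with 8 or more UMIs of Six6.

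The 2131 cells with none of the 4 factors were not a uniform remainder. In the 423 pluripotency-marked cells, Sfrp2 was the most frequent member with 32.6 CPM (28.2 to 37.4), while Shisa2 was at 6.84 CPM, Sfrp1 at 12.2 CPM and Wnt1 had 0 UMIs, for which a limit of 3 counts over the total, used here for every count of 0, is 0.488 CPM. In the 110 endoderm-marked cells, Wnt8b, Rspo2 and Rspo3 all had 0 UMIs, with a limit of 2.44 CPM each. The 86 cells with neural crest markers had Wnt1 at 9.02 CPM (4.66 to 15.8) and Sfrp1 at 75.2 CPM (61.2 to 91.4), but no UMI of Wnt7b or Wnt8b, with a limit of 2.26 CPM. The 1499 cells without such markers held most of the ligand UMIs of the remainder, including 224 of 238 for Wnt1 and 315 of 323 for Wnt8b.

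Co-detection asked whether ligands and antagonists were found in the same day 6 cells. The number of thinned cells with both genes was compared with the number expected if the 2 genes were found independently, and a pair was called where the ratio reached 1.5-fold and its interval excluded 1. Of 15 pairs of a ligand or R-spondin with an antagonist, 6 were below expectation, 0 above and 9 within the limits. For all genes found in at least 0.5% of cells, 4.74% of 35307 pairs with an antagonist were below and 0.136% above. These shares pool the pairs with Shisa2, Sfrp1 and Sfrp2, and none was computed for Shisa2 alone. They also take in genes found in nearly all cells, which can hardly depart from expectation by 1.5-fold. No share was computed for genes as rare as the ligands. All 5 ligand and R-spondin genes were below expectation with Shisa2, a count that describes the members only. After thinning to 2000 UMIs, fewer of the 15 pairs were below, as given further on. Wnt8b and Shisa2 were found together in 56 cells against 171 expected, a ratio of 0.327 (0.247 to 0.424). Rspo3 and Shisa2 shared 21 cells against 85.9 expected, a ratio of 0.244 (0.151 to 0.374), and Wnt1 and Shisa2 shared 11 against 42.4, a ratio of 0.260 (0.130 to 0.465). Rspo2 and Shisa2 had a ratio of 0.311 (0.142 to 0.591), and Wnt7b and Shisa2 one of 0.647 (0.516 to 0.801), which was 0.749 and within the limits in cells that had not been thinned.

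The secreted antagonists behaved differently from Shisa2. Sfrp1 and Sfrp2 were shared with Wnt7b, Wnt8b, Rspo2 and Rspo3 at 1.02 to 1.29 times expectation. The exception was Wnt1, which shared 27 cells with Sfrp1 against 55.9 expected, a ratio of 0.483 (0.318 to 0.702), which was 0.748 and within the limits without thinning. With Sfrp2 the Wnt1 ratio was 0.714 (0.482 to 1.02). Pairs of antagonists were within the limits but above expectation, each with an interval that excludes 1. The ratio was 1.13 for Sfrp1 and Sfrp2 (1.08 to 1.19), 1.20 for Shisa2 and Sfrp1 (1.15 to 1.26) and 1.22 for Shisa2 and Sfrp2 (1.15 to 1.29). In cells with at least 1 of the 5 ligand and R-spondin genes, 25.6% held no antagonist (22.7 to 28.6) and 49 of 875 held all 3. Among the cells without any of the 5, 23.6% held no antagonist (22.5 to 24.7) and 757 of 5766 held all 3, a share of 13.1% (12.3 to 14.0).

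Ligands were found together, and Fzd5 was seldom found with them. All 10 pairs among the 5 ligand and R-spondin genes were above expectation, while 2.53% of 58835 pairs of any gene with 1 of the 5 were. That share too takes in genes found in nearly all cells, which cannot reach 1.5-fold above expectation. Rspo2 and Rspo3 shared 36 cells against 2.39 expected, a ratio of 15.1 (10.6 to 20.9), and 49.3% of the cells with Rspo2 also held Rspo3. Wnt8b and Rspo3 shared 87 cells against 14.1, a ratio of 6.15 (4.93 to 7.58). The lowest of the 10 was Wnt1 with Wnt8b, at 2.15 (1.20 to 3.55). Fzd5 shared 5 cells with Wnt8b against 25.6 expected, a ratio of 0.196 (0.064 to 0.457), and 2 cells with Rspo3 against 12.8, a ratio of 0.156 (0.019 to 0.564). It was also below expectation with Wnt1 and Wnt7b, at 0.158 and 0.310. With Rspo2 it shared 1 cell against 4.31, within the limits (0.006 to 1.29). The share of all genes below expectation with a ligand was not computed. Axin2 was above expectation with all 5, from 2.21 with Wnt7b (1.53 to 3.08) to 3.38 with Wnt1 (1.97 to 5.41), and below it with Fzd5, at 0.434 (0.188 to 0.856), and Shisa2, at 0.656 (0.521 to 0.815).

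**Figure D5:**
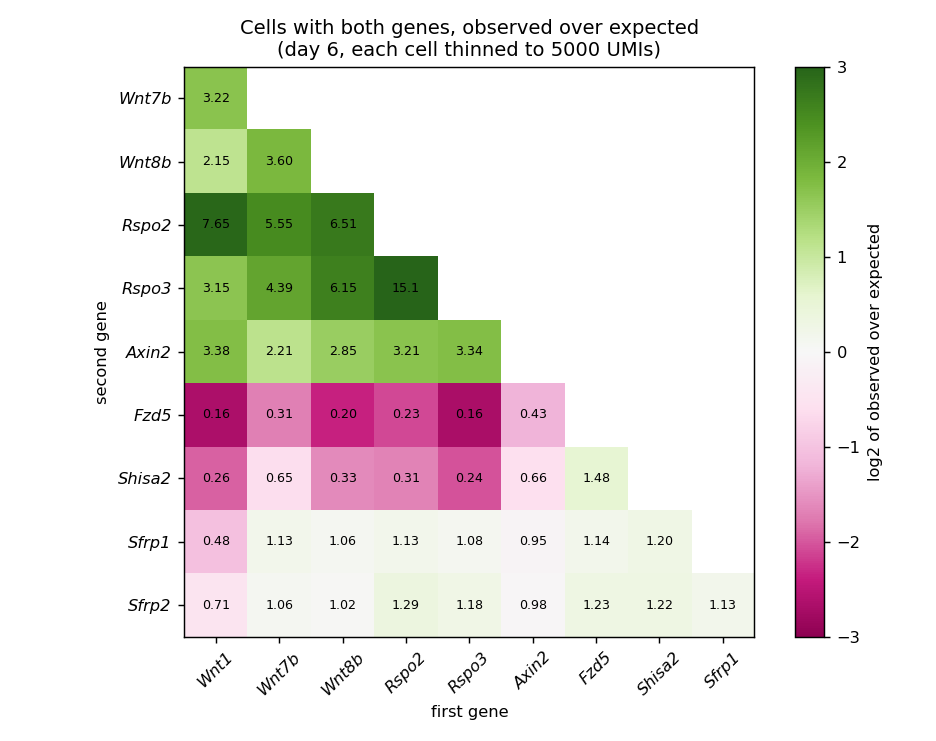
Number of day 6 cells with both genes over the number expected under independence (numbers, coloured by log2), each cell thinned to 5000 UMIs. Pairs among the 5 ligand and R-spondin genes and Axin2 are green, from 2.15 to 15.1, and their pairs with Fzd5 and Shisa2 are pink, from 0.16 to 0.66.

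The same pairs were also counted inside each group of day 6 cells. No share over all genes was computed inside the groups or on day 4. Numbers of expected cells also differ between groups, so the counts of pairs are not compared with each other. Among Emx2-alone cells, Wnt8b and Shisa2 were found together in 3 cells against 18.6 expected, a ratio of 0.161 (0.033 to 0.471), and Rspo3 and Shisa2 in 3 against 11.7, a ratio of 0.257 (0.053 to 0.752). Among Fezf2-alone cells, Wnt8b and Shisa2 shared 5 cells against 21.9, a ratio of 0.228 (0.074 to 0.532), and Rspo3 and Shisa2 shared 1 against 7.41, a ratio of 0.135 (0.0034 to 0.752). In each of these groups 2 of the 15 pairs were below expectation. In Six6-alone cells 0 of the 15 were, and Wnt8b and Shisa2 shared 13 cells against 12.3 expected, a ratio of 1.06 (0.563 to 1.81) whose interval lies above the ratio of 0.327 over all day 6 cells. Wnt7b and Shisa2 shared 21 cells there against 22.6, a ratio of 0.928 (0.574 to 1.42). Detection of Wnt8b and Wnt7b in Six6-alone cells overlapped that of pluripotency-marked cells and is not read as expression. These ratios therefore do not show whether Six6-alone cells that express the ligands also hold Shisa2. In the 2131 cells with none of the 4 factors, Wnt1 and Shisa2 were below expectation, with 3 cells against 11.9 and a ratio of 0.253 (0.052 to 0.738). Wnt8b and Shisa2, at 0.590 (0.305 to 1.03), Rspo3 and Shisa2, at 0.490 (0.197 to 1.01), and Wnt7b and Shisa2, at 1.05 (0.631 to 1.64), were within the limits there, and Rspo3 and Sfrp2 were above expectation, at 1.64 (1.11 to 2.32). In cells with 2 or more factors 4 of the 15 pairs were below. In the 61 En1-alone cells 0 were, at an expected 1.38 shared cells or fewer with Shisa2, so a shortfall was not detectable at this depth. The pair of Rspo2 and Rspo3 was above expectation in Emx2-alone cells, with 10 cells against 1.65, and in Fezf2-alone cells, with 5 against 0.27. On day 4, with 7965 thinned cells, 0 of the 15 ligand and antagonist pairs were below or above expectation, at ligand shares of 0.013% to 0.45% of cells. The expected shared cells were at most 9.65 (Wnt7b and Sfrp1), and with Shisa2 at most 5.32 (Wnt7b). A shortfall was therefore hardly detectable on day 4, and the count does not show that it was absent.

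On day 4 Six6 was found in 85 cells, Fezf2 in 390, Emx2 in 53 and En1 in 101, and these cells were not grouped by the 4 factors. They were split by Six3, an anterior factor that acts early in eye formation. Of 8147 cells, 1252 held Six3 and 6895 did not, with median depths of 13626.5 and 10745 UMIs. Of the 4 members that entered the rule, 3 were higher and 1 was within the limits, while 1.45% of 6497 genes were higher and 3.39% lower. Shisa2 was at 83.6 CPM in cells with Six3 and 26.9 CPM in cells without, a ratio of 3.10 (2.91 to 3.32). Fzd5 was at 36.6 CPM with Six3 and 16.7 CPM without, a ratio of 2.19 (1.99 to 2.40), and Sfrp1 at 114 CPM with Six3 and 60.9 CPM without, a ratio of 1.87 (1.78 to 1.97). Sfrp2, at 57.5 CPM with Six3 and 50.1 CPM without, had a ratio of 1.15 (1.07 to 1.23). The day 4 cells with Six3 thus held Fzd5 at 36.6 CPM and the day 6 cells with Six6 alone at 22.5 CPM, as values side by side from different libraries. Wnt1, with 31 UMIs in cells with Six3 and 24 in cells without, had a ratio of 5.80 (3.29 to 10.3). Axin2 had a ratio of 1.12 (0.84 to 1.47).

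Other genes of the pathway, 81 in a list by role, were read by the same rule. Between days 26 of them entered, with 8 higher and 2 lower, where 13.3% of all genes were higher and 6.28% lower. Wnt5b, a ligand that mostly signals without β-catenin, reached 19.9 CPM on day 6 against 1.19 CPM on day 4, with a ratio of 16.8 (13.9 to 20.4). Nkd1, a feedback inhibitor of Dishevelled, had a ratio of 5.80 (5.13 to 6.58), Wls, the carrier that brings Wnt proteins to the cell surface, 3.78 (3.59 to 3.97), and the secreted antagonist Frzb 3.29 (2.99 to 3.63). In Six6-alone against En1-alone cells 31 entered, with 3 higher and 11 lower, where 4.49% of all genes were higher and 7.38% lower. Of the 17 target genes 6 entered and these 6 were lower, but genes such as Sp5 and Fzd10 entered only through their level in En1-alone cells, so the count is no support for a direction. Rspo1, a further R-spondin, was at 0.60 CPM in Six6-alone cells and 41.0 CPM in En1-alone cells, the receptor Fzd10 at 0.71 and 26.5 CPM in the same order, and Sp5, a direct β-catenin target, at 1.03 and 32.5 CPM. Against Emx2-alone cells 30 entered, with 1 higher and 8 lower (1.37% and 2.6% of all genes). Against Fezf2-alone cells 28 entered, with 2 higher and 4 lower (1.66% and 2.13%). Against cells with none of the 4 factors 26 entered, with 4 higher and 3 lower (4.04% and 6.2%). On day 4, in cells with Six3 against those without, 23 entered, with 3 higher and 1 lower (1.45% and 3.39%).

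Not all antagonists were high with Six6. Dkk1, a secreted inhibitor that binds LRP co-receptors, was at 4.93 CPM in Six6-alone cells, 32.4 CPM in Emx2-alone cells and 26.4 CPM in Fezf2-alone cells, with ratios of 0.152 (0.120 to 0.192) and 0.187 (0.151 to 0.230). Frzb was at 11.6 CPM in Six6-alone cells, 44.6 CPM in En1-alone cells, 30.5 CPM in Emx2-alone cells and 27.1 CPM in Fezf2-alone cells. Wls was at 38.3 CPM in Six6-alone cells, 242 CPM in En1-alone cells, 119 CPM in Emx2-alone cells and 114 CPM in Fezf2-alone cells. The ligand Wnt5b was within the limits of the size rule among these groups, at 25.0 CPM in Six6-alone cells, 18.1 CPM in En1-alone cells, 24.0 CPM in Emx2-alone cells and 21.9 CPM in Fezf2-alone cells, but cells with none of the 4 factors had 11.3 CPM, a ratio of 2.22 (1.93 to 2.55). The R-spondin receptor Lgr4 ran the other way, at 26.6 CPM in Six6-alone cells, 10.0 CPM in Emx2-alone cells and 10.5 CPM in Fezf2-alone cells.

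The genes most like each member were sought over 9 disjoint groups of day 6 cells, by Pearson correlation of log2(CPM + 5) among 9045 genes. The points share 1 library, and the values are descriptions. Wnt1 was closest to Pcp4l1 (0.99), Pou3f2 (0.98) and the Frizzled gene Fzd10 (0.98), and Wnt7b to Fat1, Otx1 and Rnf152 (0.98, 0.97 and 0.97). Wnt8b had Stk26 (0.98), Rspo3 (0.96) and Rnf152 (0.96) beside it, so a member of the set was its second nearest gene of all. Rspo3 in turn had Wnt8b (0.96) first, and Rspo2 had Samd5, Rfx4 and Zic1 (0.97, 0.97 and 0.96). Fzd5 was closest to Plagl1, Asb3 and Cpxm1 (0.92, 0.92 and 0.90). Shisa2 was closest to Plcxd3 (0.99), Maob (0.99) and the eye field factor Six3 (0.98). Sfrp1 had Zc3h7b, Pcna and Cdc123 (0.99, 0.99 and 0.98) and Sfrp2 had Nsmce4a, Ankrd46 and Ubac2 (0.99, 0.98 and 0.98). Axin2 was closest to Sp5 (0.96), then Pax3 (0.95) and Fabp7 (0.93).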

How the data were processed

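Single-cell libraries of day 6 and day 4 eye organoids were made with the 10x 3′ v2 chemistry. As deposited, each matrix gives UMI counts for genes by barcodes on mm10, not normalized. Cell Ranger 2.0.1 is named in the submitters' processing notes, as is Seurat 2.3.4. The columns were 9114 barcodes for day 4 and 7446 for day 6. The study states more filtered cells for each day than these barcodes and names a later Cell Ranger. The matrices may therefore differ from those it analysed. Cells were kept with the study's limits of 500 to 5000 genes, 500 to 26000 UMIs, at most 10% mitochondrial, at least 20% ribosomal protein and at most 0.5% haemoglobin counts, which left 6641 day 6 cells with 5105 to 25978 UMIs each and 8147 day 4 cells with 4636 to 25998. Thinning to 5000 UMIs left out 0 day 6 and 182 day 4 cells. Scrublet, run in scanpy 1.11.5, marked 0 day 6 and 1 day 4 barcodes, too few to have worked, so doublets remained among the cells. Free RNA was not removed either.

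Counts were summed per group in Python 3.11.15 with numpy 2.4.6 and scipy 1.17.1, and the counting was tested on simulated data. All 10 members were named. For the pathway list, up to 6 genes per comparison with the largest ratio past the size rule were eligible, and for likeness the 3 nearest genes at 10 CPM or more in at least 1 group. Crest, endoderm or pluripotency markers were assigned at 3 or more markers with a UMI. The members, lists and groups were chosen with earlier results of these data known. Alternatives covered cell filters, totals, centring, thinning, doublet scores, the low filter, the fold limit and the definition of the groups. No genome sequence was aligned, and proteins were not used here.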

Additional observations from a re-analysis of the deposited data

How the results depend on the processing

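No alternative turned the direction of a member whose interval left out 1, and of the alternative values of the counts, 157 stayed within 1.5 times and 19 did not. The counts moved mainly with the filter on low genes, since fewer or more ligands then enter. Members higher on day 6 than on day 4 numbered 5 with totals that leave out mitochondrial and ribosomal protein genes, 8 at a minimum of 2 CPM and 9 without a minimum, against 3, and members lower numbered 0 at 2-fold, against 1. Members lower in Six6-alone than in En1-alone cells numbered 6 with those totals, at 2 CPM and without a minimum, and 5 with the mean over cells and with thinning, against 3. Members lower than in Fezf2-alone cells numbered 4 with those totals, 1 with thinning, 5 at 2 CPM and 6 without a minimum, against 2. Members lower than in cells with none of the 4 factors numbered 3, 5 and 6 with those totals, at 2 CPM and without a minimum, against 0. On day 4, 5 members were higher with Six3 without a minimum, against 3. Pairs of ligand and antagonist below expectation numbered 3 after thinning to 2000 UMIs, against 6, and pairs above numbered 1 with all barcodes, against 0. Beyond the low filter, the cause of these shifts was not tested.

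With 1 library per day the intervals hold no spread between organoids or experiments, and with 61 En1-alone cells the values of that group are the least certain. No paired analysis was possible because each day was 1 library.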
